A study of Schizosaccharomyces pombe with 49 samples.

Results

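Fission yeast cells that expressed GFP-Pir1-SD held less RNA of genes of meiotic recombination, the meiotic divisions and spore formation than cells that expressed GFP-Pir1, with both cultures in minimal medium in the cold. Of 5899 genes with 50 or more reads in either library, 211 (3.58%) stood at a log2 ratio of -1 or below and 23 (0.39%) at 1 or above. Of the 211, 148 (2.51% of the genes) were also at -1 or below against a second reference, GFP-Pir1-SA. Genes of mating, of the RNA elimination machinery and of the ribosome stayed within 1 log2 unit. Against GFP-Pir1-SA alone, 171 of 5894 genes (2.9%) were lower and 3 (0.0509%) higher. The comparison rests on 2 of the 49 libraries of the series, 1 a side, so it has no replicate and no test.

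The libraries were h90 cells, a homothallic strain whose cells switch mating type, mate and sporulate without a partner strain. The labels call all of them wild type. The GFP-Pir1-SD, GFP-Pir1 and GFP-Pir1-SA cultures grew in EMM, a minimal medium, at 18C, and a further GFP-Pir1 culture grew in YEA, a rich medium, at 30C. The labels spell out neither the residues that SD and SA change nor the promoter or locus of the tagged protein, and the counts of the gene do not separate its alleles. Total RNA was sequenced in bulk, and gene reads came to 32420983 with GFP-Pir1-SD, 34057799 with GFP-Pir1, 41838388 with GFP-Pir1-SA and 25525454 in the YEA culture. The larger study follows the TOR pathway, RNA elimination and the switch from mitosis to meiosis.

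Pir1, listed under the gene symbol iss10, belongs to the machinery that removes meiotic transcripts from growing cells. The RNA-binding protein Mmi1 recognises a short element in such transcripts, TNAAAC, and Pir1 links Mmi1 to Red1, the scaffold of a complex that hands the RNA to the nuclear exosome. In meiosis the RNA-binding protein Mei2 and the non-coding meiRNA sequester Mmi1, early genes of chromosome pairing and recombination come on, and the forkhead factor Mei4 then turns on the middle genes of the divisions and of spore formation.

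Some promoters of the lower genes carry motifs known from those stages, and 5 that do are shown here so that the motifs counted further on can be seen. The lines give the 250 bases before the RefSeq gene start, in build ASM294v3, 5' to 3' on the gene's strand. The sources used here do not give the build behind the counts, and genes were matched by systematic name. Capitals in the lines of middle genes mark the core of the FLEX element, the site bound by Mei4, searched as GTAAACA or GTAAATA on both strands.
crp79, chrI:1794973-1795222, minus strand: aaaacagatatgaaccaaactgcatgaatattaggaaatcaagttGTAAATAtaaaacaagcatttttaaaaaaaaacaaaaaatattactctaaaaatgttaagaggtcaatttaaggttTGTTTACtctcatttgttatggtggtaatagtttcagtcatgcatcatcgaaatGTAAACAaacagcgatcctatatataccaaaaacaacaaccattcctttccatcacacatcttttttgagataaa
mde3, chrII:1393204-1393453, plus strand: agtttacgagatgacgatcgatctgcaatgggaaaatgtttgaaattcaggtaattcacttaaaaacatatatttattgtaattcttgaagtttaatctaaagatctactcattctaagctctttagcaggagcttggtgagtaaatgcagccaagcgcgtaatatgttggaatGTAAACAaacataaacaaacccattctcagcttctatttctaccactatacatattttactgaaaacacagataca
spo4, chrII:3826928-3827177, plus strand: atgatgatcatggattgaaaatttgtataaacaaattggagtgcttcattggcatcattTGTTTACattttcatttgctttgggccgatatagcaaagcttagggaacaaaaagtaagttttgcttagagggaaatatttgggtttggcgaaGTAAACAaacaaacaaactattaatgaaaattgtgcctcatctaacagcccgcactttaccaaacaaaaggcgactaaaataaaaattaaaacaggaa
In crp79 the 3 matches began 205, 129 and 75 bases before the start, in mde3 the match began 76 bases before it, and in spo4 the 2 matches began 191 and 98 bases before it. Capitals in the lines of early genes mark ACGCGT, the MCB motif of the factor MBF, which reads the same on both strands.
hop1, chrII:3472069-3472318, plus strand: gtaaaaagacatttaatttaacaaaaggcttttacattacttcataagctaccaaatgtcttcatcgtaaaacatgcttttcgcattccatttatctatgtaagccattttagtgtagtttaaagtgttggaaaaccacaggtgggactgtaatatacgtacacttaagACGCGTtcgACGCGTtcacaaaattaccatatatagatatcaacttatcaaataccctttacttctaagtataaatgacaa
meu13, chrI:977459-977708, plus strand: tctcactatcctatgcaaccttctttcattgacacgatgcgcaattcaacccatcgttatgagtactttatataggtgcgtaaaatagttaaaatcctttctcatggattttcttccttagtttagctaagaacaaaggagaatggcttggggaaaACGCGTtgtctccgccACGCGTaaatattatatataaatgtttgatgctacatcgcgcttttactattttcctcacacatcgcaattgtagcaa
In hop1 the matches began 81 and 72 bases before the start, and in meu13 94 and 78 bases before it. These lines are a description of letters and not of binding.

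Levels are given below as CPM, gene reads scaled to a common total with TMM factors, and ratios as log2 with a prior count of 2. A 95% interval covers counting error only (exact, Clopper-Pearson), not the spread between cultures, which was not measured. The gene of Pir1 itself stood at 145 CPM with GFP-Pir1-SD, 129 CPM with GFP-Pir1, 126 CPM with GFP-Pir1-SA and 107 CPM in YEA. The log2 ratio of GFP-Pir1-SD was 0.17 (0.11 to 0.23) to GFP-Pir1, 0.21 to GFP-Pir1-SA and 0.43 to the YEA library, all short of 1.

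**Figure D1:**
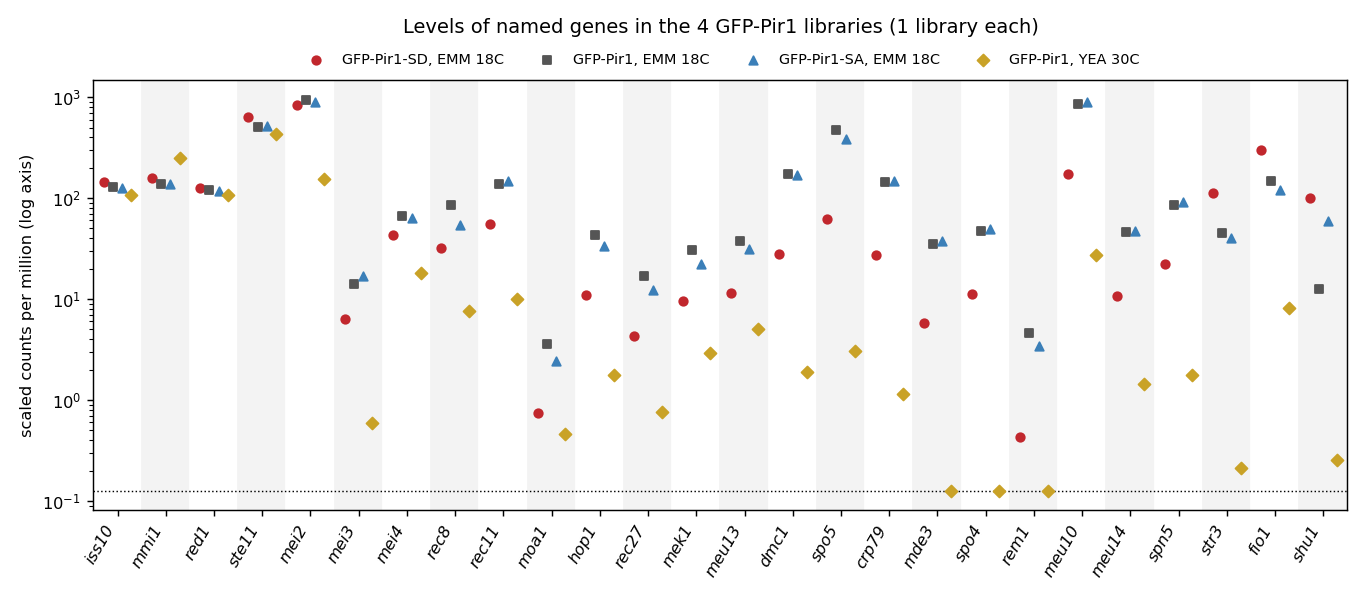
Levels of 26 named genes in CPM (log axis) in the 4 GFP-Pir1 libraries, 1 point a library; points on the dotted line are at or below 3 reads in the YEA library. The GFP-Pir1-SD points sit at or above the other EMM points for iss10, mmi1, red1 and ste11, below them from mei2 to spn5, and above them for str3, fio1 and shu1.

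The regulators of meiotic entry were mostly close to both references. The mRNA of ste11, the master transcription factor of mating and starvation genes, stood at 642 CPM with GFP-Pir1-SD, 509 CPM with GFP-Pir1 and 513 CPM with GFP-Pir1-SA. The mRNA of mei2 stood at 833 CPM with GFP-Pir1-SD, 944 CPM with GFP-Pir1 and 892 CPM with GFP-Pir1-SA, all well above the 156 CPM of the YEA culture. The list of 10 entry genes had a median log2 ratio of -0.01, beside 0.01 over all genes, and 1 of its members was lower against both references. That gene was mei3, whose product inhibits the Pat1 kinase and which is made in cells carrying both mating types. It had 207 reads (6.4 CPM) with GFP-Pir1-SD, against 506 (14.1 CPM) with GFP-Pir1 and 729 (16.9 CPM) with GFP-Pir1-SA, a log2 ratio of -1.14 (-1.38 to -0.91) to GFP-Pir1. The gene of Mei4 stood at 43.2 CPM with GFP-Pir1-SD, 66.4 CPM with GFP-Pir1 and 64.1 CPM with GFP-Pir1-SA, a log2 ratio of -0.62 (-0.72 to -0.52) that does not reach the threshold.

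None of the 24 mating genes was called in either direction against GFP-Pir1, and their log2 ratios ran from -0.15 to 0.35 with a median of 0.14. The M-factor gene mfm1 stood at 364 CPM with GFP-Pir1-SD, 306 CPM with GFP-Pir1, 377 CPM with GFP-Pir1-SA and 2.2 CPM in YEA. The receptor gene map3 of M-factor stood at 144 CPM with GFP-Pir1-SD, 121 CPM with GFP-Pir1, 138 CPM with GFP-Pir1-SA and 29.4 CPM in YEA. Markers of M cells (6 genes, median 0.1), P cells (4 genes, median 0.05) and vegetative growth (4 genes, median 0.09) had no member called. The RNA elimination and exosome list, 16 genes, ran from -0.1 to 0.33, with mmi1 at 158 CPM with GFP-Pir1-SD, against 138 CPM with GFP-Pir1 and 138 CPM with GFP-Pir1-SA.

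Markers of sporulating cells did move. All 7 lay below 0, beside 2777 of all 5899 genes and 566 of the 720 genes induced in the wild-type course below. The 7 markers had a median log2 ratio of -1.3. Lower against both references were 4 of the 7, beside 2.51% of all genes and 19.3% of the 720 induced genes. Their summed level was 4620 CPM with GFP-Pir1-SD, 9450 CPM with GFP-Pir1, 11200 CPM with GFP-Pir1-SA and 190 CPM in YEA, and no marker was at 0 in any library. In bulk RNA, fewer cells in meiosis and less RNA per meiotic cell cannot be told apart, and this bears on each meiotic gene below. The part of these markers in the ratios of other meiotic genes was not tested.

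Genes that act in recombination on meiotic chromosomes held some of the larger ratios. Of 13 genes of the linear elements and of DNA break formation, 9 were lower against GFP-Pir1 and 8 against both references, with a median of -1.17. For this list and those below, the shares to set beside are 2.51% of all genes and 19.3% of the 720 induced genes. The median log2 ratio of the 720 induced genes was -0.37. The linear element protein gene hop1 had 353 reads (10.9 CPM) with GFP-Pir1-SD, 1533 (42.8 CPM) with GFP-Pir1 and 1428 (33.2 CPM) with GFP-Pir1-SA. Its log2 ratio was -1.97 (-2.14 to -1.8) to GFP-Pir1 and -1.6 to GFP-Pir1-SA. Another linear element gene, rec27, stood at 4.33 CPM with GFP-Pir1-SD, 17.1 CPM with GFP-Pir1 and 12.2 CPM with GFP-Pir1-SA. The kinase gene mek1, of the meiotic recombination checkpoint, stood at 9.49 CPM with GFP-Pir1-SD, 30.7 CPM with GFP-Pir1 and 22.4 CPM with GFP-Pir1-SA. In these genes GFP-Pir1-SA also lay below GFP-Pir1, at log2 ratios of -0.49 to -0.37, yet GFP-Pir1-SD was the lowest of the EMM libraries.

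The break formation gene rec15 stood at 4.79 CPM with GFP-Pir1-SD, 18.7 CPM with GFP-Pir1 and 14.1 CPM with GFP-Pir1-SA. The gene mde2, needed for break formation and a target of Mei4, had 62 reads (1.92 CPM) with GFP-Pir1-SD, 575 (16 CPM) with GFP-Pir1 and 704 (16.4 CPM) with GFP-Pir1-SA. The 2 references lay within 0.03 log2 of each other there, and the log2 ratios of GFP-Pir1-SD were -3.03 and -3.05. At the other end of the list, rec14, which growing cells also express, stood at 52.9 CPM with GFP-Pir1-SD, 55.3 CPM with GFP-Pir1 and 56.5 CPM with GFP-Pir1-SA.

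Strand exchange genes were lower only in part, with 2 of 12 called against both references and a median of -0.36. Both values are near the 19.3% and -0.37 of the induced genes. The recombinase gene dmc1, which acts only in meiosis, had 906 reads (28 CPM) with GFP-Pir1-SD, 6230 (174 CPM) with GFP-Pir1 and 7376 (171 CPM) with GFP-Pir1-SA, a log2 ratio of -2.63 (-2.74 to -2.53). The gene meu13, whose product aids the recombinase, stood at 11.6 CPM with GFP-Pir1-SD, 37.7 CPM with GFP-Pir1 and 31.4 CPM with GFP-Pir1-SA. Both genes sat above their YEA levels of 1.9 and 5.08 CPM in all 3 EMM libraries.

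Of 8 genes of meiotic cohesion and the kinetochore, 3 were lower against GFP-Pir1 and 2 against both references, with a median of -0.37. The share lower against both is near the 19.3% of the induced genes. The meiotic cohesin subunit gene rec11 stood at 56 CPM with GFP-Pir1-SD, 138 CPM with GFP-Pir1 and 149 CPM with GFP-Pir1-SA, a log2 ratio of -1.3. The kinetochore gene moa1, which acts in meiosis I, had 24 reads with GFP-Pir1-SD, 129 with GFP-Pir1 and 105 with GFP-Pir1-SA, and its log2 ratio of -2.19 has an interval of -2.97 to -1.64. The shugoshin gene sgo1, which protects cohesion in meiosis I, stood at a log2 ratio of -0.61 and was not called. The mitotic subunit gene rad21 stood at 119 CPM with GFP-Pir1-SD, 91.9 CPM with GFP-Pir1 and 95.7 CPM with GFP-Pir1-SA. The meiotic subunit gene rec8 stood at 32.1 CPM with GFP-Pir1-SD, 85.7 CPM with GFP-Pir1 and 54.7 CPM with GFP-Pir1-SA. Its ratio was -1.41 to GFP-Pir1 and -0.77 to GFP-Pir1-SA, so it passes the threshold against GFP-Pir1 only, with the GFP-Pir1-SA library between the other two.

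Horsetail movement, in which dynein pulls the nucleus back and forth during meiotic prophase, and the telomere bouquet made up a list of 15 genes. Of these, 5 were lower against GFP-Pir1 and 3 against both references, with a median of -0.56. The share lower against both is near the 19.3% of the induced genes. The dynein anchor gene num1 stood at 77.6 CPM with GFP-Pir1-SD, 169 CPM with GFP-Pir1 and 160 CPM with GFP-Pir1-SA. The spindle pole body gene mcp6 stood at 10.2 CPM with GFP-Pir1-SD, 25.5 CPM with GFP-Pir1 and 23.2 CPM with GFP-Pir1-SA. The bouquet gene bqt2, with 61 reads with GFP-Pir1-SD, 157 with GFP-Pir1 and 187 with GFP-Pir1-SA, was the third, while bqt1 and tht2 reached -0.97 and -0.92 against GFP-Pir1-SA.

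The list of middle meiosis, with kinases, cyclins and factors of the divisions, held the lowest median of all lists at -1.46, and 11 of its 17 genes were lower against both references. The meiosis II gene spo5, which codes for an RNA-binding protein, had 1997 reads (61.7 CPM) with GFP-Pir1-SD, 17057 (476 CPM) with GFP-Pir1 and 16658 (387 CPM) with GFP-Pir1-SA. Its log2 ratio of -2.95 has a narrow interval of -3.02 to -2.88. The meiotic cyclin gene rem1 had the largest ratio of the named genes, -3.26, on 14 reads with GFP-Pir1-SD, 167 with GFP-Pir1 and 148 with GFP-Pir1-SA, and its interval of -4.33 to -2.64 is wide.

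The kinase gene mde3 had 189 reads (5.84 CPM) with GFP-Pir1-SD, 1260 (35.2 CPM) with GFP-Pir1, 1635 (38 CPM) with GFP-Pir1-SA and 2 in YEA. The gene spo4, coding for the kinase subunit needed for meiosis II, stood at 11.2 CPM with GFP-Pir1-SD, 47.5 CPM with GFP-Pir1 and 49.6 CPM with GFP-Pir1-SA. The gene crp79, for a poly(A)-binding protein, stood at 27.2 CPM with GFP-Pir1-SD, 143 CPM with GFP-Pir1 and 149 CPM with GFP-Pir1-SA. In mde3, spo4 and crp79, whose promoters are printed above, the 2 references lay within 0.11 log2 of each other and the GFP-Pir1-SD ratios ran from -2.58 to -2.08. Other members were not called: cdc25, the phosphatase gene of mitotic entry, stood at a log2 ratio of -0.06, the cyclin gene cig2 at -0.25 and mde6 at -0.7. In the YEA culture the uncalled cig2 stood at 107 CPM. Of members lower against both references, mde10 (-1.05 and -1.16) stood at 35.2 CPM there, mde3 at 0.0847 CPM and spo4 at 0.127 CPM. Whether the level in YEA goes with the ratios was not tested.

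Genes of the forespore membrane and spore wall, which close the programme, numbered 8 of 20 lower against both references, with a median of -0.85. The spore wall gene meu10 had 5585 reads (173 CPM) with GFP-Pir1-SD, 30264 (845 CPM) with GFP-Pir1 and 38613 (897 CPM) with GFP-Pir1-SA, a log2 ratio of -2.29 (-2.33 to -2.25). The gene meu14, whose protein rings the leading edge of the forespore membrane, stood at 10.7 CPM with GFP-Pir1-SD, 46.2 CPM with GFP-Pir1 and 47.7 CPM with GFP-Pir1-SA. The sporulation septin gene spn5 stood at 22.5 CPM with GFP-Pir1-SD, 86.1 CPM with GFP-Pir1 and 91.9 CPM with GFP-Pir1-SA. The spore surface gene isp3, the most abundant marker of sporulating cells, stood at 4180 CPM with GFP-Pir1-SD, 8020 CPM with GFP-Pir1, 9640 CPM with GFP-Pir1-SA and 29 CPM in YEA, a log2 ratio of -0.94 that stops short of the threshold.

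**Figure D2:**
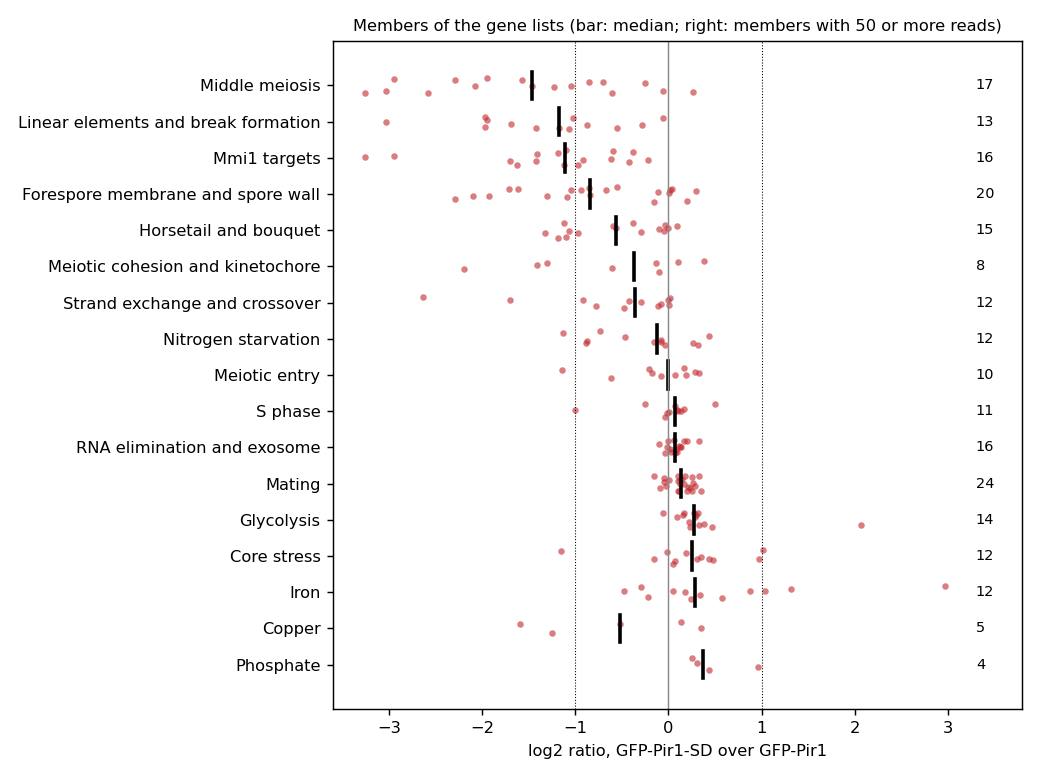
Log2 ratio of GFP-Pir1-SD over GFP-Pir1 (horizontal axis) for each member of 17 gene lists with 50 or more reads, 1 point a gene, with the median as a bar and the number of members at the right. Middle meiosis, with a median of -1.46, and linear elements, at -1.17, lie left of 0, while mating genes lie between -0.15 and 0.35.

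Known targets of Mmi1 numbered 16, spread over the lists above, and all 16 lay below 0 against GFP-Pir1, from -3.26 to -0.22. Below 0 also lay 2777 of all 5899 genes, and 566 of the 720 genes induced in the wild-type course below. Of the 16 targets, 9 were lower against GFP-Pir1 and 8 against both references, beside 19.3% of the 720 induced genes for both. Their medians were -1.11 to GFP-Pir1, -0.9 to GFP-Pir1-SA and -0.1 between the 2 references. Besides spo5, rem1, meu13 and num1, the target meu1 stood at 27.8 CPM with GFP-Pir1-SD, 86.1 CPM with GFP-Pir1 and 81 CPM with GFP-Pir1-SA. The target rec10, which builds the linear elements, stood at 43 CPM with GFP-Pir1-SD, 115 CPM with GFP-Pir1 and 114 CPM with GFP-Pir1-SA. The target ssm4, a dynactin subunit gene, stood at a log2 ratio of -0.38 and is among the 8 of the 16 not called against both.

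Together the 148 lower genes comprised 119 protein-coding genes, 28 long non-coding RNAs (18.9%, beside 13.8% of all genes) and 1 pseudogene. Their median level was 11.1 CPM with GFP-Pir1-SD, 36.4 CPM with GFP-Pir1, 34.3 CPM with GFP-Pir1-SA and 1.82 CPM in YEA. Their ratios ran from -3.26 to -1, and in 119 of the 148 the counting interval lay wholly below -1. With GFP-Pir1-SD, 108 of the 148 still stood at 1 or more log2 units above the YEA level of GFP-Pir1, beside 10.9% of all genes, and their median over YEA was 2.36. The rule that picked the 148 puts GFP-Pir1-SD below GFP-Pir1 in EMM, so only the side towards YEA could vary. On that side 132 of the 148 lay above the YEA level, beside 3005 of all 5899 genes, in cultures that differ in medium and temperature. Genes with a mug or meu symbol, given for meiotic upregulation, made up 39 of the 148. That is 35.1% of the 111 measured, beside 2.51% of all genes and 19.3% of the 720 genes induced in the wild-type course. The 111 had a median of -0.67.

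Among the non-coding RNAs, named here after their values were seen, was meiRNA (sme2), the RNA that binds Mei2 and gathers Mmi1. It had 1141 reads with GFP-Pir1-SD, 2936 with GFP-Pir1, 3153 with GFP-Pir1-SA and 362 in YEA, a log2 ratio of -1.22 to GFP-Pir1 and -1.05 to GFP-Pir1-SA. The most abundant were meu3, at 153 CPM with GFP-Pir1-SD, 593 CPM with GFP-Pir1 and 624 CPM with GFP-Pir1-SA, and meu19, at 149 CPM with GFP-Pir1-SD, 547 CPM with GFP-Pir1 and 592 CPM with GFP-Pir1-SA. Of the 28, 5 lie within 500 bases of a lower coding gene in the RefSeq annotation and none overlaps one.

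**Figure D3:**
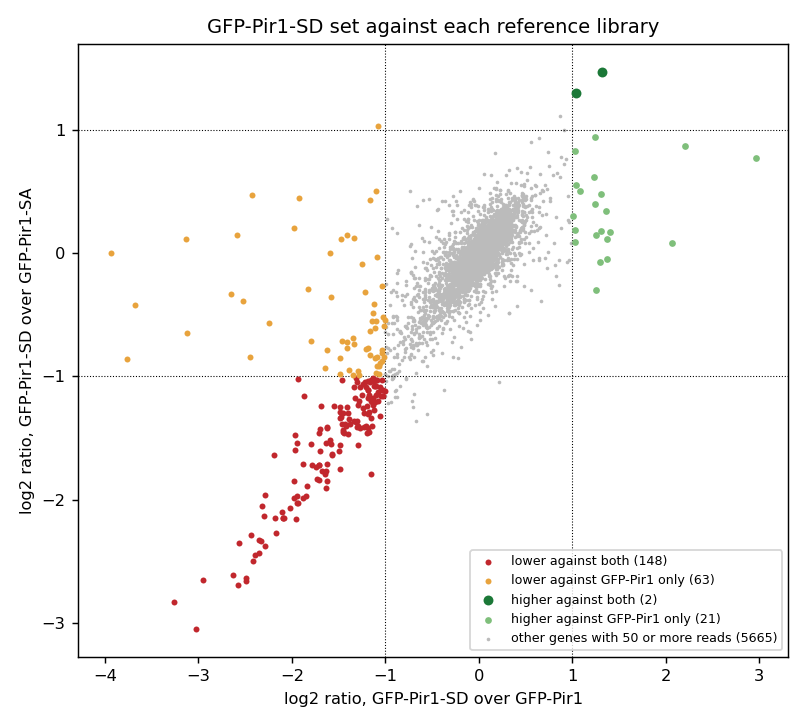
Log2 ratio of GFP-Pir1-SD over GFP-Pir1 (horizontal axis) and over GFP-Pir1-SA (vertical axis), 1 point a gene with 50 or more reads; dotted lines mark -1 and 1. The 148 genes lower against both fill the lower left corner, and the 63 lower against GFP-Pir1 only spread above it; both ratios use the same GFP-Pir1-SD library.

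The other 63 of the 211 lower genes did not reach -1 against GFP-Pir1-SA, where their median log2 ratio was -0.63. They were 19 protein-coding genes, 35 long non-coding RNAs (55.6%, beside 13.8% of all genes) and 9 others, 7 of them mitochondrial. The 63 had few reads, with medians of 36 with GFP-Pir1-SD, 109 with GFP-Pir1 and 71 with GFP-Pir1-SA. In 25 of the 63, GFP-Pir1-SA was itself at -1 or below against GFP-Pir1, a count that the choice of genes with a high GFP-Pir1 value favours, since both ratios share that library (0.522% of all genes). The copper transporter gene ctr4 shows the pattern at high depth, with 84.5 CPM with GFP-Pir1-SD, 255 CPM with GFP-Pir1 and 84.5 CPM with GFP-Pir1-SA. Its partner ctr5 stood at 76.8 CPM with GFP-Pir1-SD, 182 CPM with GFP-Pir1 and 81.8 CPM with GFP-Pir1-SA. In both copper genes the GFP-Pir1 library is the one that stands apart among the EMM cultures. At the line itself, mik1, a kinase gene of mitotic entry, lay just inside and omh4 just outside, both at -1 after rounding.

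Of the 23 higher genes, 2 (0.0339% of all genes) were also higher against GFP-Pir1-SA, and both belong to iron uptake. The transporter gene str3 had 3622 reads (112 CPM) with GFP-Pir1-SD, 1604 (44.8 CPM) with GFP-Pir1, 1736 (40.3 CPM) with GFP-Pir1-SA and 5 in YEA, a log2 ratio of 1.32 (1.24 to 1.41). The ferroxidase gene fio1 stood at 299 CPM with GFP-Pir1-SD, 146 CPM with GFP-Pir1 and 121 CPM with GFP-Pir1-SA, a log2 ratio of 1.04 with an interval of 0.99 to 1.09. It sits on the threshold, at 0.96 with scaling to total counts and 0.99 in the column without strand. Its partner fip1, the iron permease gene, stood at 153 CPM with GFP-Pir1-SD, 83.5 CPM with GFP-Pir1 and 70.7 CPM with GFP-Pir1-SA, a log2 ratio of 0.87. The iron list as a whole, 12 genes, had a median of 0.29, and the siderophore transporter gene str1 stood at 0.24.

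The other 21 higher genes were not called against GFP-Pir1-SA, and in 11 of the 23 GFP-Pir1-SA was itself at 1 or above against GFP-Pir1 (0.286% of all genes). The choice of genes with a low GFP-Pir1 value favours that count, since both ratios share the GFP-Pir1 library, so nothing is read from it. The heme uptake gene shu1 stood at 100 CPM with GFP-Pir1-SD, 12.7 CPM with GFP-Pir1 and 58.8 CPM with GFP-Pir1-SA, a ratio of 2.97 to GFP-Pir1 and 0.77 to GFP-Pir1-SA. The enolase gene eno102 stood at 146 CPM with GFP-Pir1-SD, 34.7 CPM with GFP-Pir1 and 139 CPM with GFP-Pir1-SA. The superoxide dismutase gene sod1 stood at 824 CPM with GFP-Pir1-SD, 408 CPM with GFP-Pir1 and 669 CPM with GFP-Pir1-SA.

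Growth and starvation genes gave little. The 141 cytosolic ribosomal protein genes ran from -0.26 to 0.22, with a median of -0.04. Of 12 nitrogen starvation genes only the permease gene isp5 was lower against both references, at 7.17 CPM with GFP-Pir1-SD, 15.8 CPM with GFP-Pir1 and 14.5 CPM with GFP-Pir1-SA. Of 12 core stress genes, the small heat shock protein gene hsp16 was lower against both, at 325 CPM with GFP-Pir1-SD, 723 CPM with GFP-Pir1 and 1120 CPM with GFP-Pir1-SA, and sod1 was higher against GFP-Pir1 only. The glycolysis list (14 genes, median 0.28) had eno102 as its called member, the phosphate list (4 genes, median 0.37) had none, and of 11 S phase genes mik1 was called.

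A wild-type time course of pat1-as2 diploids, where an inhibitor of the mutant Pat1 kinase triggers meiosis, gives the usual time of each gene. It has 11 libraries, 2 of vegetative cells and 1 at each later time. The rise of a gene was taken as its highest later log2 level minus the mean of its 2 vegetative log2 levels. Of the 148 lower genes, 139 rose by 3 or more on this measure, beside 720 (12.2%) of the 5899 genes. Their median level was 4.67 and 1.65 CPM in the vegetative libraries, 16.1 CPM in starved cells, 21.8, 60.3 and 170 CPM at 1, 2 and 3 h, 414 CPM at 4 h, 274 CPM at 5 h and 70.1 CPM at 8 h. The highest level fell at 4 to 6 h in 97 of the 148 (65.5%, beside 32% of all genes), at 1 to 3 h in 32 (21.6%, beside 20.8%) and at 7 to 8 h in 14 (9.46%, beside 11.6%). In starved cells it fell in 4 (2.7%, beside 7.66%) and in vegetative cells in 1 (0.676%, beside 28%). The share at 4 to 6 h was above that of all genes, and those at 1 to 3 h and 7 to 8 h were near it. Among the 720 genes with such a rise, 29.1%, 50% and 40% of those highest at 1, 2 and 3 h were among the 148. For those highest at 4, 5 and 6 h the shares were 28%, 20.1% and 18.2%.

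Not every meiotic gene was lower. Of the 720 induced genes, 139 were among the 148 and 566 lay below 0, with a median of -0.37, while the 5179 other genes had a median of 0.03. By the time of the highest level, the median log2 ratio of induced genes was -0.16 for starvation (63 genes), -0.6 for 1 h (55 genes), -1.07 for 2 h (12 genes), -0.95 for 3 h (15 genes), -0.49 for 4 h (211 genes), -0.4 for 5 h (139 genes), -0.61 for 6 h (44 genes), -0.24 for 7 h (60 genes) and -0.14 for 8 h (120 genes). Genes highest in starved cells or late in the course thus lay nearer 0 than those highest at 1 to 6 h, as a description of 2 libraries.

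**Figure D4:**
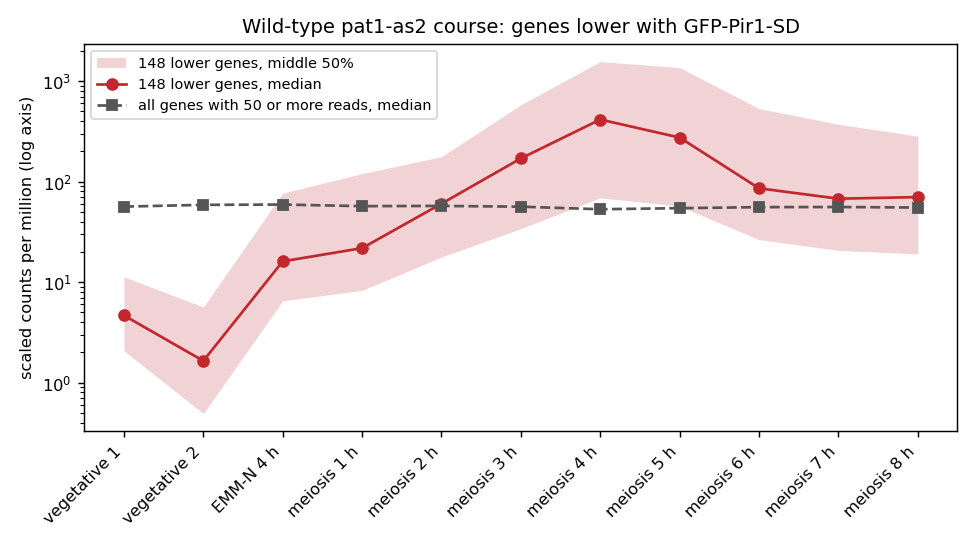
Median level of the 148 lower genes (circles, with the band holding the middle 50%) and of all 5899 genes (squares) in CPM (log axis) along the wild-type pat1-as2 course. The median of the lower genes reaches 414 at 4 h, against 4.67 and 1.65 in the vegetative libraries.

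Loss of Pir1 in vegetative cells is a separate readout, from 11 libraries of 5 strain backgrounds. The ubi4-delta, cul4-delta and ddb1-delta h90 strains, in YEA at 30C, also carry tor2-ts6, a mutation of the TOR kinase gene, with and without Pir1; the others are mat1Msmt0 cells in EMM at 29C and pat1-as2 diploids in YEA at 26C. None of these libraries was used above except the vegetative wild types of the course. The test was edgeR's quasi-likelihood test with the background as a block and Benjamini-Hochberg adjustment. By it, 26 of 6438 genes (0.404%) rose in pir1-delta cells and 1 (0.0155%) fell. The 1 that fell was iss10, the deleted gene of Pir1 itself, at a log2 change of -3.73. Of 145 lower genes tested, 7 rose and none fell. At an unadjusted p of 0.05, 24 were higher, beside 196 of the 5895 genes measured in both. In the fit 98 lay above 0, beside 41.3% of the 5895, and 18 at 1 or more, beside 1.07%. By background, 114 of the 145 lay above 0 in ubi4-delta, 84 in cul4-delta, 85 in ddb1-delta, 71 in mat1Msmt0 and 62 in pat1-as2 cells. Their medians there were 0.36, 0.15, 0.11, 0 and 0. In mat1Msmt0 cells 13 stood at 1 or more and 13 at -1 or below. Many lower genes had no read in the diploids, as given below. Read the other way, 25 of the 26 genes that rose had enough reads here, and 22 of them lay below 0 with GFP-Pir1-SD. Beside this, 2777 of all 5899 genes and 566 of the 720 induced ones lay below 0. The 25 genes had a median of -0.62 to GFP-Pir1 and -0.55 to GFP-Pir1-SA.

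A log2 change of 1 or more on loss of Pir1 was commoner among lower genes that are highest early in the course, as a count. Among the 32 lower genes highest at 1 to 3 h, 14 (43.8%) had a log2 change of 1 or more on loss of Pir1, with a median of 0.45, beside 31.7% of the 82 induced genes of that phase. Among the 94 tested of those highest at 4 to 6 h, 4 (4.26%) did, with a median of 0.09, beside 1.79% of the 391 induced genes of that phase. The genes that rose came from both phases, 5 from the early and 2 from the later one, and the difference between phases was not tested. The gene rec11 changed by 1.65 ± 0.14 (SE, adjusted p = 0.0036), between 1.25 and 2.21 in the 5 backgrounds, and meu1, which is highest at 4 h, by 1.81 ± 0.14 (SE, adjusted p = 0.00279). The genes mek1 (1.56 ± 0.17, adjusted p = 0.00986), meu13 (1.12 ± 0.13, adjusted p = 0.017) and hop1 (1.32 ± 0.19, adjusted p = 0.0427) also rose, but each lost its call without the ubi4-delta, the cul4-delta or the ddb1-delta libraries. Without the ubi4-delta libraries the adjusted p was 0.0894 for mek1, 0.0644 for meu13 and 0.267 for hop1. The call of meu13 was also lost without the mat1Msmt0 libraries (adjusted p = 0.0816), and that of hop1 without wild-type diploid replicate 2 (adjusted p = 0.0915) and where all libraries used the stranded column (1.2, adjusted p = 0.408).

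The pat1-as2 diploids entered this fit with the column without strand, in which 52 of the 145 lower genes had no read in any of the 3 diploid libraries. All 52 had 10 or more reads over these libraries in the stranded column. In the column without strand hop1 had 3 reads in the pir1-delta diploid, against 3 and 1 in the pir1+ diploids; in the stranded column it had 417, against 484 and 63. For genes listed at or near 0 the diploids thus give no measured change in this fit.

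Several calls turned on that choice of column. The gene spo5 changed by 1.79 (adjusted p = 0.0678), rec27 by 2.08 (adjusted p = 0.0971) and num1 by 2.42 (adjusted p = 0.111), none of which passed the test. With the stranded column in all libraries all 3 passed, spo5 at 1.86 (adjusted p = 0.0374), rec27 at 2.1 (adjusted p = 0.037) and num1 at 2.43 (adjusted p = 0.0135). By DESeq2, spo5 (adjusted p = 1.13e-06), rec27 (adjusted p = 0.00017) and rec8 (adjusted p = 9.14e-06) passed too, and without wild-type diploid replicate 1 so did spo5 (adjusted p = 0.0153) and rec27 (adjusted p = 0.0173). In the stranded column num1 had 2197 reads in the pir1-delta diploid, against 553 and 166 in the pir1+ diploids. The middle genes mde3 and crp79, whose levels were far lower with GFP-Pir1-SD, stood on loss of Pir1 at -0.17 (adjusted p = 0.964) and 0.18 (adjusted p = 0.903), and with the stranded column at -0.49 (adjusted p = 0.949) and 0.09 (adjusted p = 0.987). The gene of Mei4 rose by 1.39 ± 0.17 (SE, adjusted p = 0.0209) on loss of Pir1, in 5 of 5 backgrounds, with an adjusted p of 0.132 for mei4 without the ubi4-delta libraries, 0.152 without the ddb1-delta ones and 0.0582 without the mat1Msmt0 ones.

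**Figure D5:**
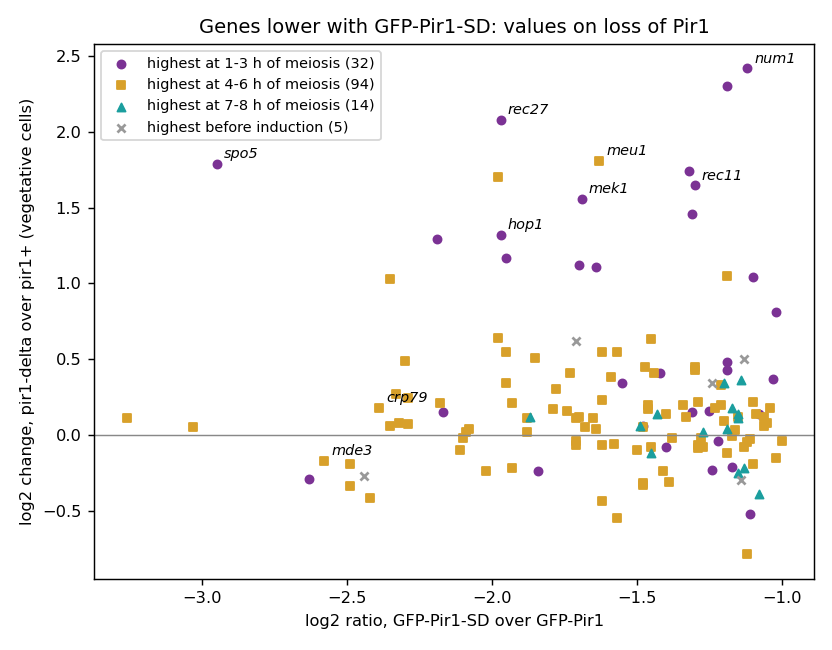
Log2 ratio of GFP-Pir1-SD over GFP-Pir1 (horizontal axis) and log2 change of pir1-delta over pir1+ in vegetative cells (vertical axis) for the 145 lower genes tested, 1 point a gene, by the phase of the highest level in the wild-type course. Points of genes highest at 1 to 3 h include rec27 at 2.08 and spo5 at 1.79, while mde3 at -0.17 and crp79 at 0.18, highest at 4 h, lie near 0.

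The motifs were then counted over all coding genes. In windows of 250 bases before to 50 after the start, 73 of 119 lower coding genes (61.3%) held the FLEX core, beside 1478 of all 4967 (29.8%). Of those highest at 4 to 6 h, 50 of 76 (65.8%) held it, beside 107 of 206 (51.9%) of the induced genes of that phase that were not lower. In the 250 upstream bases alone, 18 of the 20 named genes with the largest falls held it, all but spo5 and meu10, beside 27% of all coding genes. The MCB motif was in 12 of the 28 lower coding genes highest at 1 to 3 h (42.9%), beside 3.34% of all windows. It was in 7 of 36 (19.4%) of the induced genes of that phase that were not lower. In the 250 upstream bases alone, 4 of 9 named lower genes of that phase held it, beside 2.72% of all coding genes. The 9 were from the linear element, Mmi1 target and cohesion lists. Only hop1 and meu13, printed above, held 2 matches. The TR box core of Ste11, CTTTGTT on both strands, was in 11.8% of the lower coding genes and in 10.2% of all, and none of the motifs contains another.

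The Mmi1 element TNAAAC was counted on the transcript strand over the annotated transcript. Among the sets counted it was densest in the lower genes highest at 1 to 3 h, not in early genes as such. Its median was 3.8 per kb in the 28 lower coding genes highest at 1 to 3 h, beside 1.95 in the induced genes of that phase that were not lower and 1.64 over all coding genes. In the lower genes highest at 4 to 6 h the median was 1.91 per kb, beside 1.62 in those of that phase that were not lower. Among the named genes, rec27 held 14.7 per kb, moa1 13.5 and spo5 6.99, while the Mmi1 target rem1 held 0.827 and mde2 and hsp16 held none. The annotated transcripts of rec27 and moa1 are short, 545 and 519 bases with 8 and 7 matches.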

How the data were processed

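Read counts per gene were deposited by the authors as whole numbers, not normalised, in 3 columns: without strand, same strand and opposite strand. Per the submitters' processing notes Trimmomatic and STAR were used; the sources used here give no versions, build or annotation. Per the labels' protocols the libraries were made with 1 of 2 kits and read on 1 of 2 instruments, and neither is tied to a sample. The stranded column was used for the 4 GFP-Pir1 libraries, where it held 6.23 to 6.58 times the opposite column. Entries that name no gene stayed out of totals, namely 3.46 to 6.41% multimapping, 1.81 to 2.02% ambiguous, 1.54 to 2.19% without a feature and 0.298 to 0.323% unmapped. Of 7015 feature IDs, 6850 (97.6%) matched the RefSeq table, which gave 4414 symbols.

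Counts were scaled with TMM in edgeR 4.0.16 (R 4.3.3), over the 4 GFP-Pir1 libraries. Log2 ratios used a prior count of 2 and genes with 50 or more reads in either library, and a gene was called at an absolute ratio of 1. Loss of Pir1 was fitted with filterByExpr, glmQLFit and glmQLFTest, at a threshold of 0.05, over ubi4-delta, cul4-delta and ddb1-delta strains that also carry tor2-ts6, mat1Msmt0 cells and pat1-as2 diploids, with the column without strand for the diploids and the stranded column elsewhere. The ratio and the fit were tested on simulated counts. Members and lists were chosen with earlier results of these data known. Named genes are the 20 largest falls and the rises past 1 against both references with a symbol and 100 reads, the 5 largest rises and falls past it against GFP-Pir1 only, up to 6 members of each list and a set of anchor genes; a selection is printed. The course levels use the stranded column, a choice made after seeing the data, because the column without strand lists 51 of the 148 lower genes at 0 in all 11 libraries. The p-values of the Pir1 fit measure mainly how far the change on loss of Pir1 varied between the 5 backgrounds, which differ in strain. Only the vegetative wild-type pat1-as2 libraries repeat a background and genotype. The labels do not say that these came from separate cultures, so their spread may be technical. The labels mention no molecular identifiers, so intervals cover counting error only. Sequences are RefSeq's, build ASM294v3. Alternatives were other scalings (DESeq2 1.42.0 size factors, total counts), prior counts of 0.5 and 5, filters of 10 and 200 reads or none, the column without strand, and leaving out libraries of the fit.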

Additional observations from a re-analysis of the deposited data

How the results depend on the processing

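Against GFP-Pir1, the 211 lower genes became 336 with 10 reads, 402 with no filter and 137 in the column without strand; scalings, prior counts, a filter of 200 reads and GFP-Pir1-SA as reference gave 143 to 237. The 23 higher genes became 37 with no filter, 15 without strand and 3 against GFP-Pir1-SA. The 148 genes lower against both became 75 without strand, 57 of them shared, where 71 of the 148 had under 50 reads; in the other settings they numbered 126 to 194. The 2 higher against both became 1 with total counts, 1 without strand and 6 with no filter. Scaling to total counts shifted the overall median ratio by -0.076 log2. With GFP-Pir1-SA as reference ssd2 turned to -0.3 and ctr4 to 0. The middle meiosis median was -0.61 without strand, over 9 of 17 genes. On loss of Pir1, the 7 lower genes that rose became 17 with DESeq2 and 10 with the stranded column, 6 of them shared, and the 26 of all genes became 86 and 27. With that column 13 of 32 early and 3 of 95 later lower genes changed by 1 or more, a count chosen after seeing the data. Leaving out libraries gave 3 to 14 and 8 to 51: 3 lower genes without the ubi4-delta, cul4-delta or ddb1-delta libraries, 11 without the pat1-as2 libraries and 14 without wild-type diploid replicate 1. The cause of each change was not tested beyond the fewer genes or libraries. No paired analysis was possible because the GFP-Pir1 groups have 1 library each and no shared replicate numbers; the Pir1 fit already has the background as a block. Depth limits genes under about 100 reads, and without replicates no ratio has a known spread between cultures.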

Other observations

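The wtf genes, a family of meiotic drivers and their antidotes, were chosen here after the values were seen. Lower against both references were 7 of 25 members, beside 2.51% of all genes and 19.3% of the 720 genes induced in the wild-type course. The wtf median log2 ratio of GFP-Pir1-SD to GFP-Pir1 was -0.73, beside -0.37 for the induced genes. Below 0 lay 23 of 25, beside 566 of the 720. Near-identical copies share reads, so single members are uncertain. Transcription factor genes of later meiosis were among the 148 lower genes: atf21 stood at 42.2 CPM with GFP-Pir1-SD, 135 CPM with GFP-Pir1 and 144 CPM with GFP-Pir1-SA, and cuf2 had 66 reads with GFP-Pir1-SD, 232 with GFP-Pir1 and 306 with GFP-Pir1-SA. The meiotic activators of the anaphase-promoting complex fzr2 and fzr3 stood at log2 ratios of -1.49 and -2.17.

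Reads on the opposite strand of the lower genes did not share their ratios. In 119 of the 148 with 50 or more opposite reads, the median log2 ratio of those reads was -0.03, beside -0.13 over 4329 genes. By chromosome, 39 of 1066 genes on chromosome III (3.66%), 55 of 2131 on II (2.58%) and 54 of 2649 on I (2.04%) were among the 148.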
